A study of Mus musculus with 816 samples.

Results

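The response of cultured mouse microglia to 24 hours of lipopolysaccharide (LPS) at the higher of the doses used is described here gene by gene. Its members are the 18 cultures labelled LPS_hi with a duration of 24 hours, out of 784 cultures among the 816 samples of the series, and they were compared with the 40 cultures labelled None at 24 hours. The series is a panel of primary microglia exposed to many single and combined stimuli, read by RNA sequencing of each culture. LPS_hi stands for 0.0001 µg per µl, which is 100 ng per ml. The untreated wells carried no stimulus for the same 24 hours. For side-by-side values, 7 cultures received the lower dose LPS_lo (0.00001 µg per µl, 10 ng per ml) for 24 hours, 7 received LPS_hi for 4 hours, and 6 received P3C at 0.001 µg per µl (1000 ng per ml) for 24 hours. P3C is the synthetic lipopeptide Pam3CysSerLys4. The cells were commercial primary microglia from newborn mice, plated in 96-well plates and given the stimulus some days later, so every group is a model of isolated young microglia on plastic. Each replicate is 1 well, several wells share a plate and a Source ID, and p-values measure the spread between wells.

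LPS is a glycolipid of the outer membrane of Gram-negative bacteria. It is handed by Cd14 to the receptor complex of Tlr4 and Ly96, which signals through the adaptor Myd88 to NF-kB and from endosomes through the adaptor Ticam1 to Irf3 and type I interferon, whereas lipopeptides such as P3C signal through Tlr2 paired with Tlr1 and use Myd88. In microglia, the resident macrophages of the brain, LPS is known as a strong inducer of cytokines, chemokines, nitric oxide synthase and interferon-stimulated genes, and as a stimulus under which the surveillance genes of resting microglia are lowered.

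The 18 LPS wells and the 40 untreated wells stood together on 6 plates, here lettered A to F. The culture headers gave them 3 values of Source ID. Each culture also carried the label of a library pool, with 8 pools among the LPS wells and 10 among the untreated wells. The depth estimated from the steps of low values had a median of 5.25 M reads per LPS culture (1.14 to 14.3 M) and 5.36 M per untreated culture (1.09 to 15 M). Levels are in CPM, the reads of a gene scaled to 1 M mapped reads of its culture, and 7243 to 8848 genes exceeded 5 CPM with LPS against 8096 to 9466 without. Genes of the mitochondrial genome held a median of 1.5% of the reads with LPS and 3.02% without. Some wells stood apart. The 4 LPS wells of plate F resembled the mean LPS_lo profile more closely than the mean LPS_hi profile, the only LPS well of plate C resembled P3C most, the 3 LPS_lo wells of plate D resembled LPS_hi, and 1 untreated well of plate C had the lowest mean correlation with its group (0.761). Markers of the labelled cell type were present. The summed level of 8 microglial genes ran from 204 to 657 CPM with LPS and from 860 to 3256 CPM without, with 5 of the 8 lower by the test used below, and the microglial factor Sall1 was too low to test. The summed level of 8 genes shared by macrophages and microglia ran from 5432 to 8373 CPM with LPS and from 8149 to 14462 CPM without, while summed markers of 10 oligodendrocyte genes had medians of 79.5 CPM with LPS and 85.7 CPM without, and those of 6 endothelial genes 60.8 and 52.8 CPM. Of these, Mog, Olig2, Cldn5 and Tek were at 0 in every culture of both groups, Mag and Cnp rose, Mbp, Cspg4 and Flt1 fell, and Pecam1 had medians of 57.5 CPM with LPS and 26.8 CPM without. Summed markers of fibroblasts and mural cells reached 1281 CPM in an untreated well and 235 CPM with LPS, those of 8 astrocyte genes stayed under 43.8 CPM, and those of 6 monocyte genes had medians of 10.3 CPM with LPS and 0.457 CPM without. The part of other cell types in the results was not tested.

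In the whole table, 11747 genes exceeded 5 CPM in at least 4 of the 58 cultures and were tested with limma on log2(CPM + 1) with the plate as a block. With LPS 808 genes rose (6.88% of those tested) and 1989 genes fell (16.9%) at an adjusted p under 0.05 and a log2 fold change of at least 1 in size. The rises were fewer and steeper than the falls. A change of at least 4 was seen in 88 genes that rose and 8 that fell, and a change of at least 5 in 37 genes, all of which rose. In 183 genes (1.56%) every LPS culture lay above every untreated one, and in 83 genes (0.707%) every LPS culture lay below. Of the 808 rises, 694 had a positive difference in every plate, as 1746 of the 1989 falls had a negative one. The level of all genes moved as well, with a median log2 fold change of -0.31 over the genes tested, and this shift is the level against which each change below should be read. With every culture scaled to the same median, 1136 genes rose (9.67%) and 1229 fell (10.5%), among them all 808 of the rises and 1229 of the 1989 falls. With quantile normalization the split was 1039 to 1269. Genes that rose held a median of 26.6% of all reads per LPS culture against 6.14% without stimulus, and those that fell 7.12% against 20.6%. Ccl5 alone held 2.01% against 0.0489%, and Hnrnpll 6.10% (4.23% to 19.1%) against 9.82% (5.07% to 22.8%), so single genes took up shares of the total to which CPM is scaled. In bulk RNA, fewer cells of a type and less RNA per cell cannot be told apart.

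**Figure D1:**
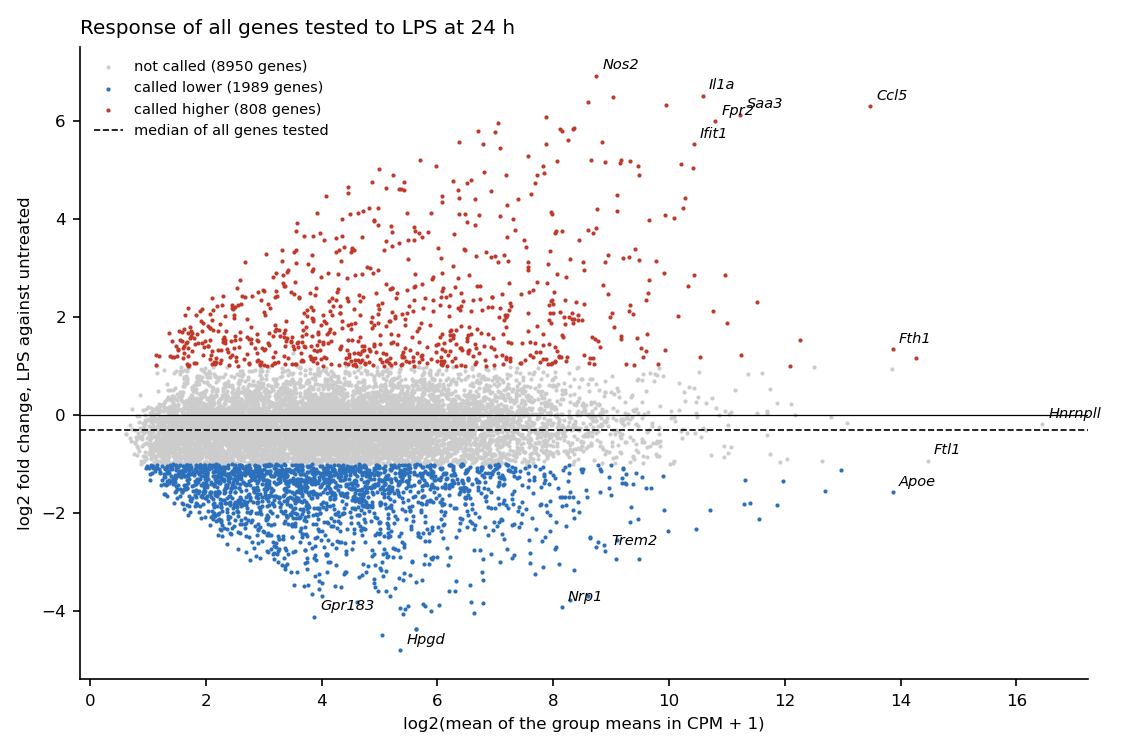
Log2 fold change between LPS_hi and untreated cultures at 24 h (vertical axis, log2(CPM + 1) scale) against the mean level of each of the 11747 genes tested (horizontal axis, log2(CPM + 1)), with the 808 genes that rose and the 1989 that fell in colour and a dashed line at the median of all genes, -0.31. The rises reach 6.93, whereas no fall passes -4.80, and most genes lie slightly under 0.

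The steepest rises included Nos2, the interleukin 1 genes and Ccl5, each without overlap between the groups. Named here are the 12 rises and 12 falls of greatest size with a mean of at least 20 CPM in the higher group and the same sign in every plate. Nos2, the inducible nitric oxide synthase (chromosome 11, 78920787 to 78960254, plus strand, GRCm38), ranged from 63.4 to 2055 CPM (median 617) with LPS and 0 to 22.0 CPM (median 2.64) without. Its lowest LPS culture thus stood above its highest untreated culture, and the log2 fold change was 6.93 ± 0.24 (SE; limma adjusted p = 5.44e-35). Il1a, which encodes the cytokine interleukin 1 alpha (chromosome 2, 129299610 to 129309972, minus strand), ranged from 1224 to 5469.7 CPM (median 2630.1) with LPS and 0 to 192 CPM (median 32.3) without. The groups did not overlap, and the gene rose by 6.53 ± 0.33. Its neighbour Il1b, interleukin 1 beta (chromosome 2, 129364570 to 129371139, minus strand), was found at 419 to 2819 CPM (median 814) with LPS and 0 to 65.3 CPM (median 9.22) without. Again all 18 LPS cultures exceeded all 40 untreated ones, with a rise of 6.51 ± 0.28.

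Lcn2, a lipocalin that withholds iron by binding bacterial siderophores, measured 55.6 to 2697 CPM (median 574) with LPS and 0 to 46.2 CPM (median 14.3) without, a rise of 6.40 ± 0.35. Ccl5, a chemokine for T cells and monocytes (chromosome 11, 83525778 to 83530518, minus strand), spanned 9449 to 41388 CPM (median 20106) with LPS and 42.1 to 1279 CPM (median 489) without, a rise of 6.31 ± 0.21. Neither gene had an untreated culture within the range of the LPS cultures. Oasl1, an antiviral protein related to the oligoadenylate synthetases, spanned 841 to 3583 CPM (median 1611) with LPS and 3.99 to 124 CPM (median 31.5) without, a rise of 6.33 ± 0.21. Cxcl10, an interferon-induced chemokine, spanned 39.1 to 872 CPM (median 569.9) with LPS and 0 to 76.9 CPM (median 4.83) without, a rise of 5.85 ± 0.33. Of the 12 steepest rises, Cxcl10 was the one whose groups overlapped, with 17 of 18 LPS cultures above the highest untreated value.

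The other steep rises were the acute-phase protein Saa3 (6.14 ± 0.17, medians 35.6 CPM untreated and 2540.3 CPM with LPS), the Schlafen family members Slfn4 (6.09 ± 0.25) and Slfn1 (5.96 ± 0.22), the formyl peptide receptor Fpr2 (6.0 ± 0.17) and the signalling inhibitor Socs3 (5.87 ± 0.23). In all 5 the lowest LPS culture exceeded the highest untreated culture. Each of the 12 rises reached the smallest value that 100000 permutations of the labels within plates can give (p = 1e-05, two-sided). The 12 genes were chosen for their size and sign in the same wells, so this value is no separate test of them. Near-identical copies within the Schlafen, Ifit, Oas, Gbp and H2 families can share reads, and their single values carry that uncertainty.

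**Figure D2:**
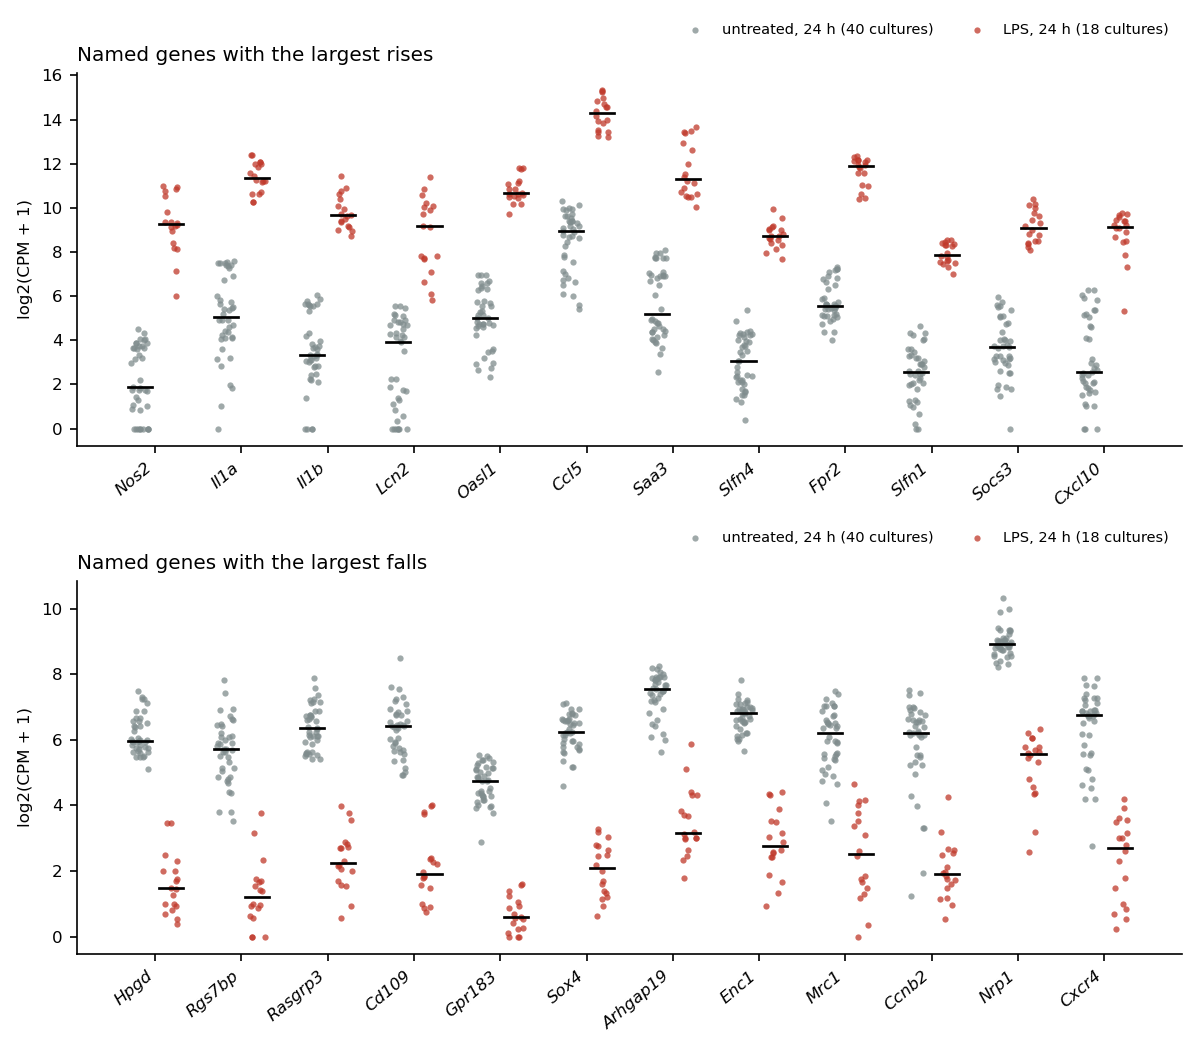
Level of the 12 genes with the steepest rise and the 12 with the steepest fall in every LPS_hi and untreated culture at 24 h (vertical axis, log2(CPM + 1)), one point per culture, with a bar at the group median. Among the rises the 2 clouds of points are separate for every gene but Cxcl10, where 1 of 18 LPS cultures reaches the untreated range.

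Sequence upstream of these genes was read from RefSeq for the 300 bases from 250 before to 50 after the annotated start (GRCm38.p6), since many rose together. They were searched on both strands for a kappaB consensus of 10 bases, the type of site NF-kB binds, and for the letters GAAANNGAA, which resemble the interferon-stimulated response element. Of the 12 steepest rises, 10 had a promoter in the table (Nos2 and Ccl5 did not), and 4 of these held a match, shown here with matches in capitals. The Oasl1 window (chr5:114922990-114923289 on the plus strand) and the Slfn1 window (chr11:83116570-83116869 on the plus strand) hold kappaB letters, the Saa3 window (chr7:46715627-46715926 on the minus strand) holds the GAAANNGAA letters, and the Cxcl10 window (chr5:92348840-92349139 on the minus strand) holds both.
Oasl1: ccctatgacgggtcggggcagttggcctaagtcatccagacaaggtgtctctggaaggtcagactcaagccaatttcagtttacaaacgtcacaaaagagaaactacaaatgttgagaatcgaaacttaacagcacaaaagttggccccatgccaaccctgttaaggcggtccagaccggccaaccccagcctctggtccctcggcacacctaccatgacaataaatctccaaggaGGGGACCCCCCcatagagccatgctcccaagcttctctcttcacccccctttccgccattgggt
Saa3: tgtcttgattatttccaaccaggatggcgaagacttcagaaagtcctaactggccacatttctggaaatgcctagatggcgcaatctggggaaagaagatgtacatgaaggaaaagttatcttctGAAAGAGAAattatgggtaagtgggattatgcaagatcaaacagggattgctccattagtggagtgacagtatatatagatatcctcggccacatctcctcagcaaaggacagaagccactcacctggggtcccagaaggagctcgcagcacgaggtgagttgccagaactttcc
Slfn1: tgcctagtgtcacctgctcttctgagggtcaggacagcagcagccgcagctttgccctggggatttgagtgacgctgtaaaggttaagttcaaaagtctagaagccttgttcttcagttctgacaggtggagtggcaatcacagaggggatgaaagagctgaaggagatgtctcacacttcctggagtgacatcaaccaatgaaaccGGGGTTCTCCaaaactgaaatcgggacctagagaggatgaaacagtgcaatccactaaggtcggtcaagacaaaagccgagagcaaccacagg
Cxcl10: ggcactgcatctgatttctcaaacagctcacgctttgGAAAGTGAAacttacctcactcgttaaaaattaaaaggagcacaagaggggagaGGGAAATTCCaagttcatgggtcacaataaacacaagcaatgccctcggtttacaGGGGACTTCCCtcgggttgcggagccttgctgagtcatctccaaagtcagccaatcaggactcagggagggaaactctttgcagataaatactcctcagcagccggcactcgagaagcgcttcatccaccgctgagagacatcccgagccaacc

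The GAAANNGAA letters were present in 117 of 567 windows of genes that rose (20.6%), in 112 of 1453 windows of genes that fell (7.71%) and in 740 of 8377 windows of all genes tested (8.83%). Windows of the antiviral interferon-stimulated genes held them in 16 of 26 cases (61.5%). The kappaB consensus was present in 104 of 567 windows of genes that rose (18.3%), 184 of 1453 of genes that fell (12.7%) and 1032 of 8377 of all genes tested (12.3%). Among all 32851 windows of the table, 8.56% held the GAAANNGAA letters, 8.46% the kappaB consensus and 0.0244% matches of both that overlapped. These are descriptions of letters in a window, and binding was not measured.

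Among the genes that fell most, Hpgd, the dehydrogenase that inactivates prostaglandins (chromosome 8, 56294585 to 56321043, plus strand), ranged from 0.315 to 10.1 CPM (median 1.78) with LPS and 33.4 to 179 CPM (median 62.0) without. The groups did not overlap, and the level fell by 4.80 ± 0.15 on the log2 scale (adjusted p = 2.97e-37). Mrc1, the mannose receptor of macrophages, spanned 0 to 24.1 CPM (median 4.80) with LPS and 10.6 to 179 CPM (median 73.7) without, and fell by 3.95 ± 0.23. Cxcr4, the receptor for Cxcl12, spanned 0.182 to 17.3 CPM (median 5.52) with LPS and 5.72 to 237 CPM (median 107) without, and fell by 3.90 ± 0.17. In Mrc1 and Cxcr4 the groups overlapped. Summed markers of 6 genes of perivascular macrophages, Mrc1 among them, had medians of 182 CPM (92.6 to 863) with LPS and 300.3 CPM (145 to 469.5) without, 3 of its 4 tested genes fell, and their part in the fall of Mrc1 was not tested. The other steep falls were in Rgs7bp (-4.49 ± 0.28), Rasgrp3 (-4.36 ± 0.17), an activator of Ras, Cd109 (-4.35 ± 0.23), Gpr183 (-4.11 ± 0.18), the receptor for oxysterols, the transcription factor Sox4 (-4.05 ± 0.17), Arhgap19 (-4.04 ± 0.20), Enc1 (-4.00 ± 0.15), the mitotic cyclin Ccnb2 (-3.93 ± 0.36) and Nrp1 (-3.91 ± 0.16), a co-receptor for semaphorins. Of these 12 genes, 7 had every LPS culture below every untreated one.

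**Figure D3:**
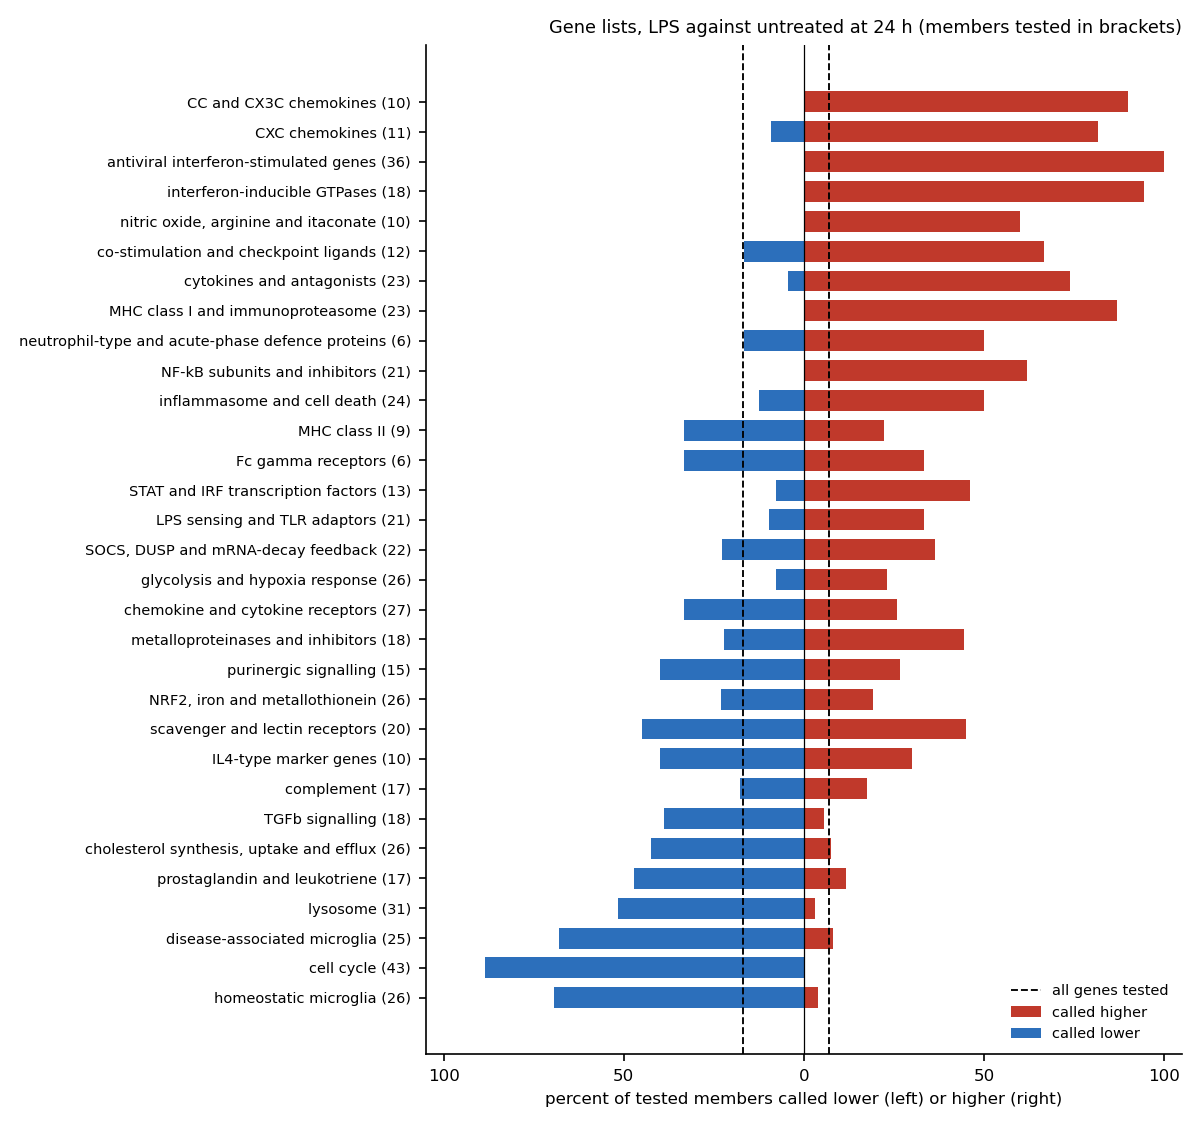
Percent of the tested members of each gene list that rose (bars to the right) or fell (bars to the left) with LPS_hi against untreated at 24 h, with the number tested in brackets and dashed lines at the shares over all genes tested, 6.88% and 16.9%. The lists are ordered by median log2 fold change, and the antiviral interferon-stimulated genes reach the full width to the right (36 of 36) while the cell cycle genes lean farthest to the left (38 of 43 lower).

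Gene lists of 31 processes were read in the same fit, against the median of -0.31 over all genes. Of all genes tested, 6.88% rose and 16.9% fell, and a count near these shares is no result about its list. Of 23 cytokines and antagonists tested, 17 rose and 1 fell, with a median log2 fold change of 2.09. Il6, a pleiotropic inflammatory cytokine, had a median of 0.631 CPM without stimulus and 47.7 CPM with LPS, a rise of 5.03 ± 0.23. Il1rn, the secreted antagonist of the interleukin 1 receptor, had a median of 19.3 CPM without stimulus and 777 CPM with LPS, a rise of 5.17 ± 0.17. The growth factor Csf1 (0.22 ± 0.25), Osm (-0.02 ± 0.24) and Tgfb1 (-0.59 ± 0.12) did not pass, which here means an adjusted p of 0.05 or more or a change smaller than 1.

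Chemokines rose nearly throughout, 9 of 10 CC and CX3C chemokines (median 3.79) and 9 of 11 CXC chemokines (median 3.71), while 1 CXC chemokine fell. Ccl2, which attracts monocytes, had a median of 7.65 CPM without stimulus and 561 CPM with LPS, a rise of 5.19 ± 0.23. Ccl7 rose by 4.44 ± 0.22 and Ccl22 by 3.88 ± 0.34. Among the ligands of Cxcr3, Cxcl9 went from 4.83 to 159 CPM by the medians, a rise of 4.77 ± 0.27, and Cxcl11 from 1.35 to 152 CPM, a rise of 5.08 ± 0.34. Cxcl3, a neutrophil attractant, rose by 4.59 ± 0.32. Ccl6 (0.02 ± 0.12) and the platelet factor Pf4 (0.24 ± 0.18) did not pass.

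Their receptors moved both ways, with 7 of 27 higher, 9 lower and a median of 0.03. Cx3cr1, the fractalkine receptor of microglia, had a median of 379.9 CPM without stimulus and 36.7 CPM with LPS and fell by 3.25 ± 0.21. Ccrl2, which binds chemerin, rose by 3.13 ± 0.18, and Tnfrsf1b, a receptor for TNF, rose by 2.64 ± 0.13. Ifnar2 (0.03 ± 0.10), Ifngr2 (0.61 ± 0.13) and Csf2ra (0.03 ± 0.11) did not pass. Of 21 genes of LPS sensing, 7 rose and 2 fell. The LPS co-receptor Cd14 had a median of 112 CPM without stimulus and 657 CPM with LPS, a rise of 2.67 ± 0.18, and Tlr1 rose by 2.80 ± 0.21. Irak3, a kinase-like brake on the pathway, had a median of 11.5 CPM without stimulus and 160.1 CPM with LPS, a rise of 3.89 ± 0.16. Tlr13, a receptor for bacterial ribosomal RNA, fell by 2.32 ± 0.11.

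Of 21 NF-kB subunits and inhibitors, 13 rose (median 1.32). The adaptor Traf1 rose by 5.79 ± 0.22. Nfkbia, which holds NF-kB in the cytoplasm, had a median of 116 CPM without stimulus and 1079.7 CPM with LPS, a rise of 3.23 ± 0.10. Nfkbiz rose by 3.76 ± 0.19 and Tnip3 by 2.89 ± 0.23. The subunit Rela (0.01 ± 0.16) and the kinase Ikbkb (0.19 ± 0.15) did not pass. In the list of feedback inhibitors, 8 of 22 rose and 5 fell, the falls near the share of all genes (16.9%). Socs1, an inhibitor of JAK kinases, had a median of 8.28 CPM without stimulus and 318 CPM with LPS, a rise of 5.30 ± 0.21. The phosphatase Dusp2 rose by 4.14 ± 0.24 and the mRNA nuclease Zc3h12a by 2.83 ± 0.17. Socs2 (-0.30 ± 0.28), Dusp6 (-0.71 ± 0.21) and Atf3 (-0.45 ± 0.12) did not pass.

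All 36 antiviral interferon-stimulated genes rose, with a median of 3.69, and in 26 of them the groups did not overlap. Ifit1, which binds foreign RNA, spanned 1790.3 to 3276 CPM (median 2688) with LPS and 11.8 to 448 CPM (median 85.1) without, a rise of 5.53 ± 0.23. Isg15, a ubiquitin-like modifier, spanned 171 to 1314 CPM (median 892) with LPS and 2.76 to 68.0 CPM (median 16) without, a rise of 5.57 ± 0.20. Ifi205, of the interferon-inducible p200 family, rose by 5.53 ± 0.21. Of 18 interferon-inducible GTPases, which attack vacuoles that hold pathogens, 17 rose (median 3.35). Gbp7 had a median of 8.68 CPM without stimulus and 262 CPM with LPS, a rise of 4.91 ± 0.22, and Gbp5 had a median of 3.03 CPM without stimulus and 151 CPM with LPS, a rise of 4.74 ± 0.31. Gbp2 reached a median of 935 CPM from 46.8 CPM. Gbp8 (0.90 ± 0.25) did not pass, but did so under several alternatives, both scalings among them.

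Of 13 STAT and IRF transcription factors 6 rose and 1 fell. Irf7, the amplifier of type I interferon, spanned 724 to 1762 CPM (median 1249.7) with LPS and 4.95 to 188 CPM (median 62.9) without, a rise of 5.20 ± 0.21. Stat2 rose by 2.83 ± 0.15, while Irf3 was at -0.37 ± 0.13 and Irf2 at -0.12 ± 0.18. Irf8, a lineage factor of microglia, fell by 1.29 ± 0.09, and that call was lost after scaling to a common median. MHC class I presentation rose in 20 of 23 genes (median 1.61). H2-Q7 had a median of 67.3 CPM without stimulus and 714 CPM with LPS, a rise of 3.73 ± 0.17, and the peptide transporter Tap1 had a median of 31 CPM without stimulus and 178 CPM with LPS, a rise of 2.65 ± 0.16. The chaperones Calr (-0.11 ± 0.11) and Pdia3 (-0.19 ± 0.16) did not pass.

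Of 9 MHC class II genes tested, 2 rose and 3 fell, and after median scaling 4 rose and 1 fell. H2-Ab1 had a median of 0.433 CPM without stimulus and 4.92 CPM with LPS, a rise of 1.80 ± 0.33, and H2-Aa, at 0.963 and 8.88 CPM, did not pass (0.61 ± 0.32). Ifi30, a lysosomal thiol reductase for antigens, fell by 1.43 ± 0.11. Of 12 co-stimulatory and checkpoint ligands 8 rose and 2 fell (median 2.20), the falls near the share of all genes (16.9%). Cd40, which receives T cell help, had a median of 4.31 CPM without stimulus and 192 CPM with LPS, a rise of 4.79 ± 0.27. Cd274, the ligand of the checkpoint receptor Pdcd1, had a median of 7.31 CPM without stimulus and 187 CPM with LPS, a rise of 4.40 ± 0.18. Slamf7 rose by 5.77 ± 0.23.

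The genes of nitric oxide, arginine and itaconate rose in 6 of 10 cases (median 2.47). Irg1, the enzyme that makes itaconate, had a median of 9.21 CPM without stimulus and 551 CPM with LPS, a rise of 5.62 ± 0.20. Slc7a2, an arginine transporter, spanned 275 to 1503 CPM (median 1128) with LPS and 9.80 to 103 CPM (median 61.2) without, a rise of 4.17 ± 0.14. Ass1, which remakes arginine from citrulline, rose by 3.52 ± 0.24, while its partner Asl was at -0.05 ± 0.11. In prostaglandin and leukotriene metabolism 2 of 17 rose and 8 fell (median -0.81). The inducible cyclooxygenase Ptgs2 had a median of 1.08 CPM without stimulus and 53.4 CPM with LPS, a rise of 4.91 ± 0.26, and the prostaglandin E synthase Ptges had a median of 12.5 CPM without stimulus and 529 CPM with LPS, a rise of 5.81 ± 0.21. The constitutive cyclooxygenase Ptgs1 had a median of 38.7 CPM without stimulus and 1.46 CPM with LPS and fell by 3.52 ± 0.17, beside the fall of the prostaglandin-degrading Hpgd.

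Of 26 glycolysis and hypoxia genes 6 rose and 2 fell, with a median of 0.11, above that of all genes. Hif1a, the hypoxia-inducible factor, had a median of 129.6 CPM without stimulus and 492.9 CPM with LPS, a rise of 1.97 ± 0.10. The glycolytic enzymes Gapdh (0.00 ± 0.12), Pkm (0.05 ± 0.10) and Aldoa (0.28 ± 0.09) did not pass. Cholesterol genes fell in 11 of 26 cases and rose in 2 (median -0.73), and 7 falls held after median scaling. The rises were near the share of all genes (6.88%). Scd2, a fatty acid desaturase, fell by 2.60 ± 0.27 and Soat1, which esterifies cholesterol, by 1.82 ± 0.13. Ch25h, which makes an oxysterol, rose by 2.03 ± 0.25, and Nr1h3, a sterol receptor, by 2.04 ± 0.27. The transporter Abca1 was at 0.08 ± 0.15.

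Genes of resting microglia fell. Of 26 homeostatic genes 18 were lower and 1 higher (median -2.18), and 17 were lower after median scaling. Fcrls, an Fc receptor-like protein, spanned 3.16 to 233 CPM (median 29.4) with LPS and 153 to 1692 CPM (median 524) without, and fell by 3.76 ± 0.22. Trem2, a lipid-sensing receptor, spanned 56.8 to 248 CPM (median 125) with LPS and 585 to 1274 CPM (median 807) without, and fell by 2.78 ± 0.11. P2ry13, a nucleotide receptor, fell by 2.98 ± 0.22 and Pros1 by 3.19 ± 0.21. The member that rose was Gpr84, a receptor for medium-chain fatty acids (3.73 ± 0.19). Selplg (0.42 ± 0.09), Bin1 (-0.97 ± 0.12) and Cst3 (-1.0 ± 0.11) did not pass. The microglial marker Tmem119 was already low without stimulus, with a median of 14.6 CPM, and had 1.64 CPM with LPS.

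Genes known from disease-associated microglia fell as well, 17 of 25 lower and 2 higher (median -1.56), with 15 lower after median scaling. The lists are not separate sets. Trem2 and Tyrobp stand in this and the homeostatic list, and Ctsb, Ctsd, Ctsl and Ctsz in this and the lysosome list. Igf1, a growth factor, spanned 76.6 to 284 CPM (median 192) with LPS and 597 to 1831 CPM (median 1294) without, and fell by 2.94 ± 0.09. Ank fell by 3.19 ± 0.18 and Timp2 by 2.54 ± 0.10, whereas Cst7, a cysteine protease inhibitor, had a median of 0.571 CPM without stimulus and 26.5 CPM with LPS, a rise of 3.08 ± 0.32. Ctsz (0.20 ± 0.09) and Ctsl (-0.24 ± 0.13) did not pass. Of 31 lysosome genes 16 fell and 1 rose (median -1.04), with 12 lower after median scaling. Atp6v0d2, a proton pump subunit, fell by 3.19 ± 0.18, Man2b1, a mannosidase, by 2.70 ± 0.10 and Lipa, the acid lipase, by 2.50 ± 0.14. Grn was at -0.03 ± 0.20.

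Of 17 complement genes 3 rose and 3 fell, the falls near the share of all genes (16.9%), with a median of -0.27 that became 0.06 after median scaling. Cfb, a factor of the alternative pathway, spanned 88.9 to 1477 CPM (median 684) with LPS and 2.04 to 61.8 CPM (median 10.3) without, a rise of 5.84 ± 0.21. C3 had a median of 5.84 CPM without stimulus and 169.7 CPM with LPS, a rise of 4.60 ± 0.23, and the inhibitor Serping1 rose by 3.11 ± 0.31. The initiators of the classical pathway C1qa (-0.47 ± 0.13), C1qb (-0.27 ± 0.12) and C1qc (-0.80 ± 0.15) did not pass. Among 6 Fc gamma receptor genes 2 rose and 2 fell. The high-affinity receptor Fcgr1 had a median of 59.1 CPM without stimulus and 424 CPM with LPS, a rise of 3.09 ± 0.11, and Fcgr3 fell by 1.38 ± 0.10.

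Scavenger and lectin receptors divided evenly, 9 of 20 higher and 9 lower (median -0.18, and 0.14 after median scaling). Marco, a scavenger receptor for bacteria, spanned 394 to 2888 CPM (median 1436) with LPS and 9.13 to 149 CPM (median 39.5) without, a rise of 4.91 ± 0.17. Clec4e, the lectin Mincle, had a median of 23.5 CPM without stimulus and 1117 CPM with LPS, a rise of 5.21 ± 0.18. Clec4a1 rose by 4.43 ± 0.16, against the fall of Mrc1. Of 15 genes of purinergic signalling 4 rose and 6 fell (median -0.14, and 0.19 after median scaling). The adenosine receptors Adora2a (3.92 ± 0.18) and Adora2b (4.12 ± 0.23) and Cd38 (4.59 ± 0.22), which cleaves NAD, rose. P2rx4 (0.26 ± 0.11) and P2ry6 (-0.14 ± 0.17) did not pass.

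Of 6 acute-phase and neutrophil-type proteins, 3 rose and 1 fell, the fall near the share of all genes (16.9%). Beside Lcn2 and Saa3, Chil1 rose by 2.25 ± 0.26, and Lyz2, a lysozyme of macrophages, had a median of 10242 CPM without stimulus and 5381 CPM with LPS and fell by 1.12 ± 0.11, a call lost after median scaling. S100a8 was at 0.61 ± 0.29, and summed markers of 8 neutrophil genes had medians of 16.4 CPM with LPS and 8.19 CPM without. Among 18 metalloproteinases and inhibitors 8 rose and 4 fell (median -0.03, and 0.30 after median scaling). The falls were near the share of all genes (16.9%). Mmp14, a membrane-bound collagenase, had a median of 4.75 CPM without stimulus and 123 CPM with LPS, a rise of 4.48 ± 0.21. Mmp13 rose by 3.65 ± 0.24 and Serpinb2, an inhibitor of plasminogen activators, by 3.73 ± 0.31.

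Of 24 inflammasome and cell death genes 12 rose and 3 fell (median 0.95), the falls near the share of all genes (16.9%). The rises included inhibitors of death, Bcl2a1a (4.29 ± 0.22), Birc3 (2.69 ± 0.19) and Cflar (2.50 ± 0.10), and the executor of necroptosis Mlkl (3.84 ± 0.25). Bcl2a1a has near-identical copies, so its value is uncertain. Casp8 (0.75 ± 0.15) and Naip5 (-0.40 ± 0.20) did not pass. In the list of NRF2 targets, iron and metallothionein genes, 5 of 26 rose and 6 fell (median -0.16, and 0.16 after median scaling). The falls were near the share of all genes (16.9%). Sod2, the mitochondrial superoxide dismutase, spanned 1637 to 3263 CPM (median 2229) with LPS and 70.4 to 268 CPM (median 111) without, a rise of 4.24 ± 0.11. Slc7a11, the cystine transporter, rose by 2.49 ± 0.23. Slc40a1, the iron exporter ferroportin, had a median of 158 CPM without stimulus and 13.2 CPM with LPS and fell by 3.47 ± 0.19, while Hmox1 was at 0.97 ± 0.11.

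The cell cycle was lower almost throughout, in 38 of 43 genes, with a median of -2.12. After median scaling 33 were lower and 1 higher. Cenpa, the centromeric histone, spanned 0.726 to 38.2 CPM (median 8.54) with LPS and 8.95 to 241 CPM (median 124) without, and fell by 3.86 ± 0.28. Tk1, the thymidine kinase of S phase, had a median of 139.8 CPM without stimulus and 7.17 CPM with LPS and fell by 3.38 ± 0.34, and Ube2c, of the anaphase machinery, fell by 3.42 ± 0.35. Tpx2 (-0.69 ± 0.28), Kif20a (-0.79 ± 0.23) and Ccnd2 (0.70 ± 0.30) did not pass. Of 18 genes of TGFb signalling 1 rose and 7 fell (median -0.67), the rise near the share of all genes (6.88%). The receptors Tgfbr1 and Tgfbr2 fell by 2.46 ± 0.16 and 1.75 ± 0.12, the inhibitor Smad7 by 1.83 ± 0.29, and the matrix protein Tgfbi rose by 2.16 ± 0.18. Of 10 marker genes of the response to interleukin 4, 3 rose and 4 fell (median -0.18, and 0.14 after median scaling), among them Egr2 (-3.06 ± 0.24) and Fn1 (-2.81 ± 0.20).

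The size of the response differed between plates. A test of the interaction of LPS with the plate passed for 631 genes (5.37%), among them 407 of the genes that rose or fell, 74 of which had differences of both signs among plates. Of the 212 genes named by rule, 68 passed it. Cxcl10 rose by 8.07 in plate B and by 1.95 in plate D (interaction adjusted p = 3.48e-10). In the untreated wells Cxcl10 lay from 32.6 to 76.9 CPM in the 10 untreated wells of plate D and from 0 to 5.32 CPM in the 3 of plate B.

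Nos2 rose by 3.89 in plate D and 8.81 in plate E. Its untreated wells lay from 6.93 to 22.0 CPM in plate D, from 7.84 to 18.9 CPM in plate F and from 0.804 to 2.40 CPM in plate E. Ccl5 had untreated medians of 828 CPM in plate F, 711 CPM in plate D and 47.2 CPM in plate B, and rises of 5.39, 4.20 and 7.79 there. Cxcl10, Nos2 and Ccl5 rose in each of the 6 plates and least in plate D. Nos2 rose by 7.10 in plate F, where its untreated median was 12.5 CPM against 12.8 CPM in plate D, and by 5.89 in plate C, where they lay from 0 to 1.12 CPM. Cxcl10 rose by 3.76 in plate C, with untreated wells at 0 to 6.47 CPM. Those wells came from different library pools. They lay at 0 to 1.13 CPM in the pool of the LPS well and at 3.21 to 6.47 CPM otherwise. Mrc1 was lower in every plate, by a log2 fold change of -2.02 in plate B and -5.52 in plate E at the extremes. The cyclin Ccnd2 turned direction, with -2.29 in plate C and 3.95 in plate F, and Ch25h ran from -0.30 in plate C to 3.69 in plate F. Plates also differed in Source ID and in the number of LPS wells (1 to 6), and the part of either was not tested. Well position differed too. At an edge or corner lay 6 of the 18 LPS wells and 10 of the 40 untreated wells. In plate B all 3 untreated wells lay there and all 3 LPS wells in the middle. Position and LPS thus cannot be told apart in plate B. The LPS well of plate C lay at an edge. With middle wells alone, 803 genes rose and 2258 fell. Without the 5 LPS wells and 1 untreated well that stood apart, a choice made after the data were seen, 788 genes rose and 2066 fell.

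**Figure D4:**
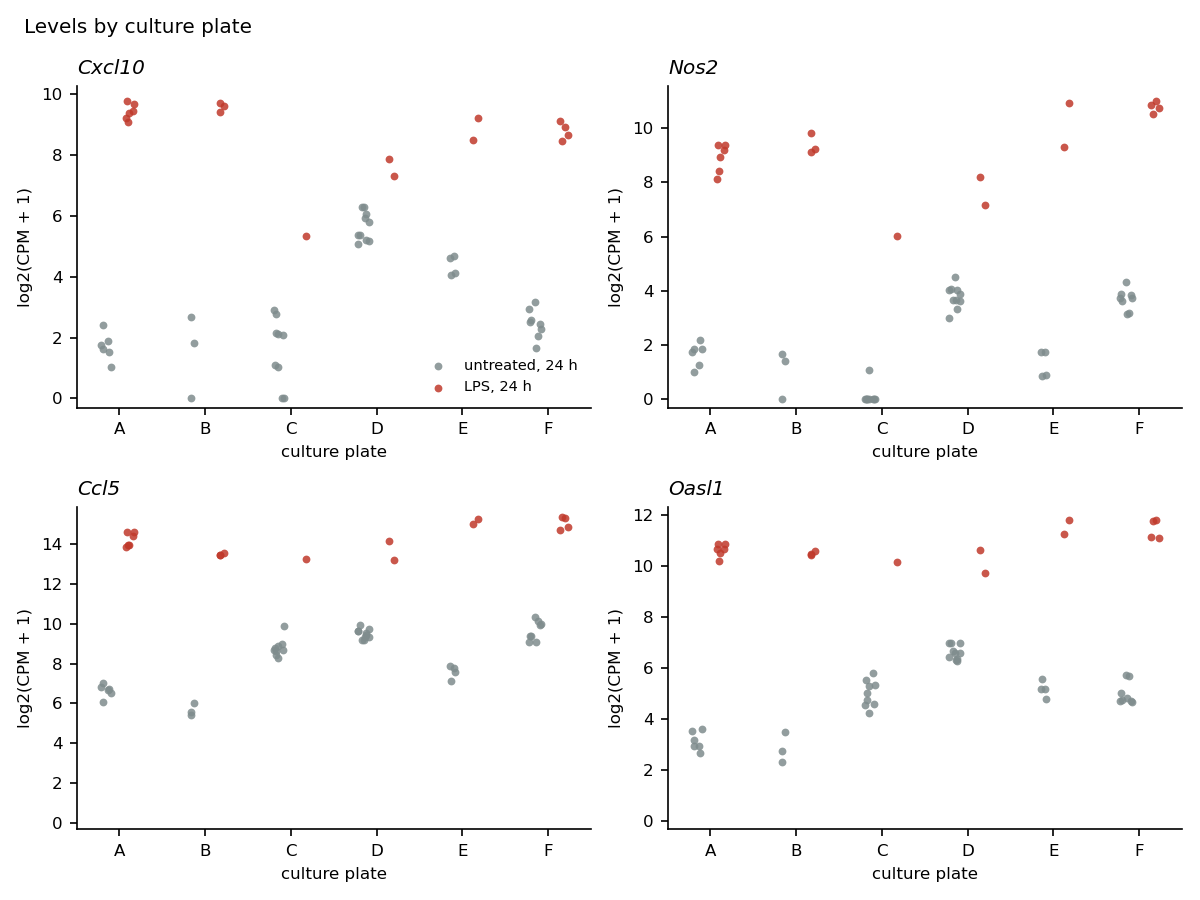
Level of Cxcl10, Nos2, Ccl5 and Oasl1 (vertical axis, log2(CPM + 1)) in each LPS_hi and untreated culture at 24 h, by plate A to F, one point per culture. For Cxcl10 the LPS and untreated points are farthest apart in plate B (log2 fold change 8.07) and closest in plate D (1.95), where untreated wells lie at 32.6 to 76.9 CPM.

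The response was set beside 3 other conditions in a fit of 12043 genes with the plate as a block. Each difference is LPS_hi at 24 h minus the other condition on the log2(CPM + 1) scale, and the 3 comparisons share the LPS_hi wells. The LPS_hi wells of this fit came from all 6 plates, whereas each other condition stood on a pair of them. LPS_lo shared plate D (2 LPS_hi wells against 3) and plate F (4 against 4), P3C shared plate C (1 against 3) and plate E (2 against 3), and LPS_hi at 4 h shared plate D (2 against 3) and plate E (2 against 4). The fit takes the difference to be the same in every plate, while the response to LPS differed between plates. Each comparison was therefore also made within the plates that held both conditions, on the same genes, an alternative chosen after the data were seen. These within-plate values rest on fewer wells, but on wells of the same plates and Source IDs. The library pools were not always the same. In plate E the LPS_hi wells at 24 h were in a different pool from all P3C and 4 h wells. Condition and pool thus cannot be told apart in plate E. In plate F part of the LPS_hi wells were in another pool than the LPS_lo wells.

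Against the lower dose, 10 ng per ml for the same 24 hours, 18 genes were higher (0.149%) and 3 lower (0.0249%) over all plates, while 931 genes had an unadjusted p under 0.05. Within plates D and F 2 genes were higher (0.0166%) and 0 lower, while 768 had an unadjusted p under 0.05 by limma. Slc7a2 and Il1b were the 2 that passed in both fits. Slc7a2 was higher by 1.20 ± 0.27 over all plates and 1.37 ± 0.12 within plates D and F (limma adjusted p = 2.82e-04), at 716 to 888 CPM against 289 to 353 CPM in plate D and 579 to 802 CPM against 224 to 302 CPM in plate F. The doses did not overlap in either plate. Il1b was higher by 2.20 ± 0.44 over all plates, but by 1.19 ± 0.17 within plates D and F (limma adjusted p = 0.0355), at 843 to 1359 CPM against 476 to 638 CPM in plate D and 510.3 to 831 CPM against 206 to 330.3 CPM in plate F.

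The other 16 genes higher over all plates did not pass within plates D and F. Nos2 was at 33.5 to 565 CPM (median 133) with the lower dose and differed by 3.18 ± 0.44 over all plates (limma adjusted p = 2.85e-06). Within plates D and F the Nos2 difference was 2.39 ± 0.56 (limma adjusted p = 0.354), 1.16 in plate D and 3.13 in plate F. Il6 was at 0 to 70.7 CPM (median 9.42) with the lower dose and differed by 2.77 ± 0.45 over all plates and 2.14 ± 0.74 within (limma adjusted p = 0.717). Il1a differed by 2.54 ± 0.51 over all plates and 1.36 ± 0.25 within (limma adjusted p = 0.210), 1.23 in plate D and 1.43 in plate F. In both plates the lowest LPS_hi value of Nos2 and Il1a exceeded the highest LPS_lo value. This separation rests on 2 wells against 3 and 4 against 4, and no share over all genes is given. Oasl1 differed by 1.59 ± 0.33 over all plates and 0.77 ± 0.29 within (limma adjusted p = 0.729). In plate D Oasl1 lay at 841 to 1592 CPM with the higher dose and 1118 to 1193 CPM with the lower, a difference of 0.01, and in plate F the difference was 1.22.

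The remaining genes with a call over all plates and none within are named here after their values were seen. They were the chemokines Ccl3 and Ccl4, the cytokines Tnf and Il12a, the receptor Ccr7, the enzymes Ptgs2, Ptges and Irg1, the NF-kB regulators Tnfaip3, Traf1 and Malt1, and Ism1, with Ntpcr (-1.24 ± 0.24 over all plates, -1.37 ± 0.35 within), Txnip (-1.02 ± 0.21 and -0.80 ± 0.21) and Nbas on the lower side. Ccl3 differed by 1.73 in plate D and 0.43 in plate F, and Tnf by 1.39 and 0.50. Of the 36 antiviral genes 1 passed over all plates and 0 within, with list medians of 0.54 and 0.12. Of 23 cytokines 5 passed over all plates and 1 within, with medians of 0.38 and 0.33, beside -0.06 and -0.07 over all genes. The lists were not tested against each other. Without the plate block 6 of the 21 calls were kept, those of Il6, Il12a, Tnfaip3, Slc7a2, Malt1 and Ntpcr. With median scaling all 18 of the higher genes kept their call, while Txnip and Nbas lost theirs.

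Against P3C, 818 genes were higher with LPS_hi (6.79%) and 233 lower (1.93%) over all plates. Within plates C and E, which held 3 LPS_hi wells, 124 were higher (1.03%) and 13 lower (0.108%), of which 118 and 11 also passed over all plates. The LPS_hi and P3C wells shared a library pool in plate C but not in plate E, and the part of the pool was not tested. With all plates and median scaling 640 were higher and 451 lower, and without the block 1620 and 385. The doses differ, 100 ng per ml of LPS and 1000 ng per ml of P3C. Ifit1 spanned 95.7 to 379 CPM (median 123) with P3C, and was higher with LPS_hi by 4.55 ± 0.39 over all plates and 3.42 ± 0.36 within plates C and E (limma adjusted p = 0.00613). Nos2 spanned 0.653 to 3.13 CPM (median 0.935) with P3C, and was higher by 7.03 ± 0.48 and 7.43 ± 0.81. Cxcl10 spanned 0.836 to 33.3 CPM (median 8.81) with P3C, and was higher by 5.65 ± 0.55 over all plates and 4.24 ± 0.40 within (limma adjusted p = 0.00394), 4.21 in plate C and 4.25 in plate E. The untreated medians of these 3 genes were 85.1, 2.64 and 4.83 CPM, so their P3C medians lay far nearer to the untreated than to the LPS_hi level.

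Most tested members of 3 lists of interferon-related genes were higher over all plates. Of the 36 antiviral genes 35 were higher with LPS_hi than with P3C over all plates and 23 within plates C and E (medians 3.48 and 3.07), of 18 GTPases 17 and 9 (medians 3.70 and 2.63) and of 23 MHC class I genes 19 and 9 (medians 1.86 and 1.69), against medians of 0.12 and 0.15 over all genes. Of 21 NF-kB genes 0 were past the limma test in either fit (medians 0.07 and 0.03), while over all plates 6 had an unadjusted p under 0.05, as had 2922 of all 12043 genes. Of 26 homeostatic genes 0 were past it in either fit (medians -0.23 and -0.09), 9 had an unadjusted p under 0.05 over all plates, and 2 were lower after median scaling. A gene that did not pass is not thereby shown to be equal. Ms4a4c (6.48 ± 0.42 over all plates, 5.79 ± 0.66 within), Slfn1 (6.16 ± 0.41 and 5.82 ± 0.87) and Phf11a (5.73 ± 0.43 and 4.72 ± 0.90) were higher with LPS_hi in both fits.

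The interleukin 1 genes and Lcn2 did not pass against P3C in either fit, and their values depended on the plates used. Lcn2 spanned 64.8 to 947 CPM (median 521) with P3C and differed by 0.07 ± 0.59 over all plates, but by 1.46 ± 0.63 within plates C and E (limma adjusted p = 0.386). The LPS_hi well of plate C had 852 CPM of Lcn2 and its P3C wells 64.8 to 573 CPM, and in plate E the LPS_hi wells had 1048 to 2697 CPM and the P3C wells 469.6 to 947 CPM. In both plates every LPS_hi well thus lay above every P3C well. With 1 well against 3 and 2 against 3, such separation can arise by chance in many genes. No share of all genes separated in this way is given here. Il1a spanned 102 to 1341 CPM (median 1019) with P3C and differed by 1.51 ± 0.57 over all plates and 2.55 ± 0.73 within (limma adjusted p = 0.177), again without overlap in either plate. Il1b spanned 28.4 to 972 CPM (median 609) with P3C and differed by 0.80 ± 0.48 and 1.57 ± 0.77 (limma adjusted p = 0.441). Its LPS_hi well of plate C, at 498 CPM, lay within the P3C range of that plate, 28.4 to 541 CPM. In plate E the LPS_hi wells, at 1914.5 and 2819.4 CPM, lay above the P3C wells, at 678 to 972 CPM.

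Genes lower with LPS_hi than with P3C included Mmp9, a gelatinase, which spanned 64.5 to 202 CPM (median 76.1) with P3C and 0.201 to 48.1 CPM (median 4.31) with LPS_hi, a difference of -3.51 ± 0.65 over all plates and -2.37 ± 0.43 within plates C and E (limma adjusted p = 0.0361). Nqo1, a quinone reductase and NRF2 target, spanned 0 to 63.3 CPM (median 17.4) with P3C and 0 to 7.35 CPM (median 0.168) with LPS_hi, a difference of -3.23 ± 0.60 over all plates and -2.45 ± 1.2 within, where its call was lost (limma adjusted p = 0.434). Spn differed by -2.97 ± 0.53 over all plates, and Rpl5, a ribosomal protein gene, by -3.07 ± 1.05, and within plates C and E both calls were lost (-3.72 ± 1.00 and -4.17 ± 1.35). The call of Rpl5 was lost without the plate block as well. Of 26 NRF2, iron and metallothionein genes 6 were lower over all plates and 0 within (medians -0.43 and -0.35).

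Against 4 hours of the same dose, 1860 genes were higher at 24 hours (15.4%) and 789 lower (6.55%) over all plates, with a median of 0.29 over all genes. Within plates D and E 577 were higher (4.79%) and 460 lower (3.82%), with a median of 0.26, and 516 and 407 of these also passed over all plates. With all plates and median scaling 1100 were higher and 1256 lower. No untreated 4 h wells were used, so time in culture and time of stimulus cannot be told apart. The 24 h and 4 h wells shared a library pool in plate D but not in plate E, and the part of the pool was not tested. Lcn2 spanned 3.56 to 49.3 CPM (median 8.27) at 4 h, and was higher at 24 h by 6.05 ± 0.55 over all plates and 6.39 ± 0.63 within, 4.50 in plate D and 8.08 in plate E. Saa3 spanned 202 to 341 CPM (median 314) at 4 h, and was higher by 4.22 ± 0.35 and 4.11 ± 0.22. Ccl5 spanned 4546 to 16111 CPM (median 13589) at 4 h, and was higher by 1.92 ± 0.39 and 1.31 ± 0.18. Siglece, an inhibitory sialic acid receptor, was higher by 4.82 ± 0.42 and 4.85 ± 0.58, U90926 by 4.77 ± 0.51 and 5.86 ± 0.82 and the kinase Pim2 by 4.24 ± 0.51 and 4.66 ± 0.44.

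At 4 hours other genes were higher than at 24 hours. Cxcl10 had a median of 3318 CPM at 4 h and 569.9 CPM over all LPS_hi wells at 24 h, a difference of -1.55 ± 0.52 over all plates but -3.47 ± 0.26 within plates D and E (limma adjusted p = 1.26e-05). In plate D Cxcl10 lay at 3209.9 to 4020.5 CPM at 4 h and 158 to 234 CPM at 24 h, and in plate E at 2796 to 3882 CPM and 359 to 593 CPM. Cd83, an activation marker, spanned 197 to 426 CPM (median 339.9) at 4 h and 0.605 to 29 CPM (median 11.4) at 24 h, a difference of -4.69 ± 0.45 over all plates and -4.46 ± 0.31 within. Adamts4, a protease of matrix proteoglycans, differed by -5.00 ± 0.41 and -5.10 ± 0.38, Apobr by -4.86 ± 0.28 and -4.32 ± 0.24 and Akap2 by -4.82 ± 0.36 and -5.20 ± 0.31. Ccl2 had medians of 505 CPM at 4 h and 561 CPM at 24 h and was not past the test in either fit (-0.30 ± 0.46 and -0.55 ± 0.44).

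Of 21 NF-kB genes 8 were lower at 24 h than at 4 h and 1 higher over all plates (median -0.89), and 7 and 1 within plates D and E (median -0.89). Of 18 GTPases 8 were lower and 1 higher (median -0.99), and 8 and 0 within (median -1.31), and of 25 disease-associated genes 13 were lower (median -1.18), and 12 within (median -1.48). After median scaling 12 NF-kB genes, 9 GTPases and 18 disease-associated genes were lower. Glycolysis genes were higher in 9 of 26 cases and lower in 1 (median 0.82), within plates D and E in 12 and 0 (median 1.19), and after median scaling in 4 and 1. Of the 36 antiviral genes 5 were higher and 5 lower over all plates (median 0.31), beside 15.4% and 6.55% of all genes. Within plates D and E 5 were higher and 8 lower (median -0.36), beside 4.79% and 3.82% of all genes. After median scaling 5 were higher and 7 lower, beside 1100 and 1256 of all 12043 genes.

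**Figure D5:**
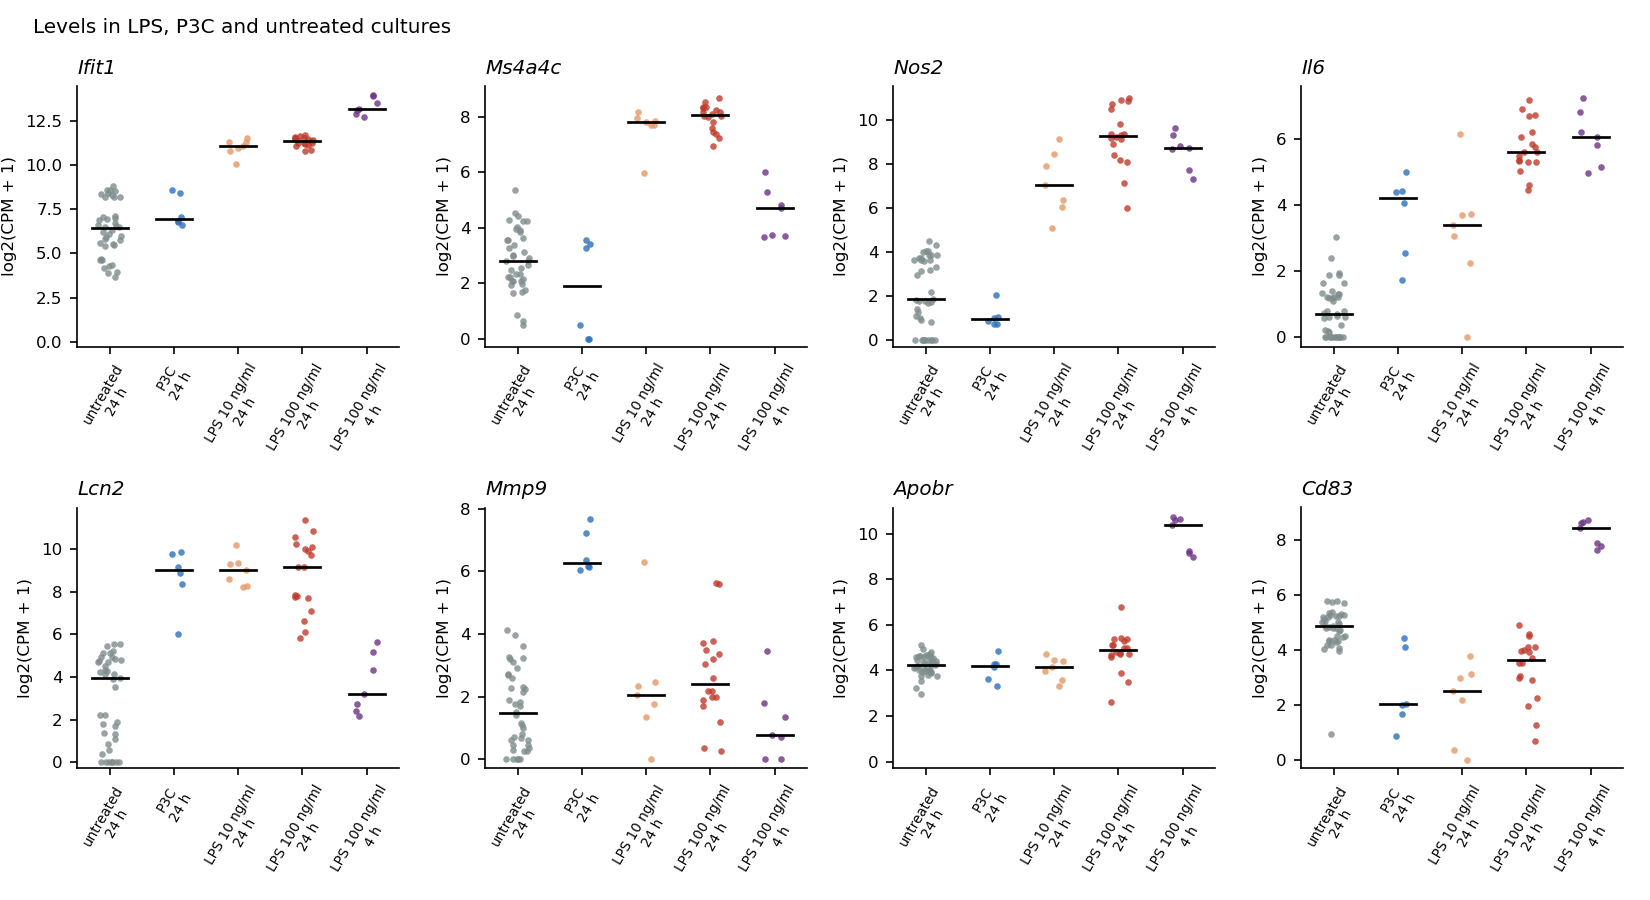
Level of 8 genes (vertical axis, log2(CPM + 1)) in each culture without stimulus, with P3C, LPS_lo (10 ng per ml) or LPS_hi (100 ng per ml) for 24 h and with LPS_hi for 4 h, one point per culture and a bar at the group median. Ifit1 and Nos2 lie higher with LPS_hi at 24 h than with P3C, whereas Lcn2 lies low at 4 h and at a median of 574 CPM at 24 h with LPS_hi.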

How the data were processed

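RNA sequencing libraries of single wells were quantified by the authors with Salmon 0.7.1 against Ensembl transcripts, the values were summed per gene, and the deposited table is taken here to hold CPM, the reads of a gene scaled to 1 M mapped reads. The study's methods name the values TPM, while they describe a division by mapped reads and none by transcript length. No counts were used, since only 73.3% to 86.9% of values under 20 reads came within 0.1 of a whole read. Of the table, 78 culture columns were mapped to the 5 groups by their labels, and 706 further culture columns were not used. Genes above 5 CPM in at least 4 cultures were kept, a pseudocount of 1 was added, and limma 3.58.1 (R 4.3.3, statmod 1.5.0) was fitted with a trend and the plate as a fixed block. Comparisons with LPS_lo, P3C and 4 h LPS came from a fit of all 5 groups and, added after the data were seen, from the plates that held both conditions. The p-values of limma were adjusted by Benjamini-Hochberg over all genes tested, and a gene rose or fell at an adjusted p under 0.05 with a log2 fold change of at least 1 in size. The script was tested on simulated data. Of 212 named genes, 181 passed 100000 permutations within plates after adjustment over the named genes alone, and 147 reached the smallest p, 1e-05. Many of these genes were chosen for their change in the same wells, so the counts are no separate test. The permutations had no limit on size, so a gene without a call could pass them. Named genes were the 12 rises and 12 falls described in the report, up to 4 changed and up to 3 members of high level without a call of each list, and up to 4 genes in each direction against LPS_lo, P3C and 4 h LPS. The cultures, lists and genes were chosen with earlier results of these data known. Gene positions are of GRCm38 and promoters of RefSeq GRCm38.p6, matched by symbol for 8377 of 11747 genes tested. Python 3.11.15, numpy 2.4.6, scipy 1.17.1, pandas 2.3.3, numba 0.67.0 and matplotlib 3.10.9 served for the rest. Other blocks, pseudocounts, filters, scalings, tests and subsets of cultures were tried as alternatives. Some single genes are not reported here.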

Additional observations from a re-analysis of the deposited data

Results flagged for a closer look

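The size of the rise or fall differed between the 6 plates by the interaction test of limma for 68 of the 212 named genes. Among the genes of greatest change, the highest minus the lowest log2 fold change of a plate was 6.12 for Cxcl10 (adjusted p = 3.48e-10), 4.93 for Nos2 (adjusted p = 3.37e-08), 4.08 for Oasl1 (adjusted p = 2.34e-10) and 3.59 for Ccl5 (adjusted p = 8.61e-13). It was 3.76 for Il1b, 3.36 for Socs3, 3.10 for Saa3, 2.61 for Slfn1 and 2.60 for Fpr2, all of which rose in each plate, and 3.50 for Mrc1, which fell in each plate. Plate C held 1 LPS well and plates D and E held 2 each, so the values of these plates rest on few wells. In plate B all 3 untreated wells lay at an edge or corner and all 3 LPS wells in the middle.

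Among the 6 P3C cultures, 1 had Nos2 at 3.13 CPM, with the next at 1.09 CPM, and this gap was 0.742 of the range of the group. The limit used for such gaps is passed by chance in about 1 in 20 groups.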

How the results depend on the processing

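Under the alternatives tried, 4128 values of named genes kept their call or its absence, 77 gained a call and 16 lost one. No gene with a call turned direction, whereas values near 0 without a call could, as for Osm, at -0.02 as deposited and 0.30 after median scaling. Against untreated wells, 1571 genes rose and 4640 fell with no minimum fold change. Falls numbered 1054 with a pseudocount of 5, 1229 with median scaling, 1269 with quantile normalization and 1246 with the exact rank-sum test and Bonferroni correction. Leaving out each plate in turn gave 777 to 810 rises and 1876 to 2152 falls. Against P3C, 1620 genes were higher and 385 lower without the block, 531 and 155 with a pseudocount of 5, and 451 lower with median scaling. Against 4 h LPS, 934 were higher with a pseudocount of 5, and 1100 higher and 1256 lower with median scaling. Against LPS_lo, 1 gene was lower without the block and 1 with median scaling. Within the plates that held both conditions, chosen after the data were seen, 2 genes were higher and 0 lower against LPS_lo, 124 and 13 against P3C, and 577 and 460 against 4 h LPS, with fewer wells in each fit. The cause of these shifts was not tested, apart from the limit on size itself. No paired analysis was possible because the replicate numbers name wells and pair none of them. All plates held both groups, so a fit limited to such plates was the same fit. A fit with all 24 h conditions was not run. In its place a fit of 5 groups, chosen after the data were seen, gave 826 rises and 1933 falls. Depths of 1.09 to 15 M reads limit what can be seen of genes at a few CPM, and no interval for single values was possible without counts.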
